A study of Mus musculus with 6 samples.

Results

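The genes described here encode the protein subunits of the mitochondrial ribosome, the particle that translates the few messenger RNAs of the mitochondrial genome. They were taken as every probe annotated with exactly 1 gene symbol that began with Mrpl (large subunit) or Mrps (small subunit) followed by a number, pseudogenes left out. This gave 75 of the 30142 genes with a usable probe, of which 47 were Mrpl and 28 were Mrps genes, each with 1 probe. Mrpl58, annotated under its older symbol Ict1, entered through an update of symbols by Entrez identifier. Mrpl30, Mrpl53 and Mrps6 were left out because their only probes also named another gene (Gm6238, Ccdc142 and Slc5a3, in that order).

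RNA of mouse platelets from blood and of bone marrow cells labelled megakaryocyte progenitors was hybridised to 6 Clariom D Mouse arrays. For either cell type, 1 array was from CTC41-EVs, 1 from CTC41.5G-EVs and 1 from PBS as control, the EV names being the labels' own and not expanded there. An array held RNA that the protocols describe as pooled from several animals. Neither the labels nor the protocols state the strain, age or genotype of the mice, how many made a pool, or how, when and at what dose they were treated. The arrays of a cell type therefore differ in treatment, no group has a replicate, and a spread over 3 arrays below includes any effect of treatment. Values are the deposited log2 signals, so a difference of 1 is a doubling of signal. Precision is limited by the small number of arrays.

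All 9 measured platelet markers were higher in platelets, with summed linear signals of 16356 to 23548 on the platelet arrays, against 465.4 to 533.5 on the progenitor arrays. On the progenitor arrays Clec1b and P2ry12, both platelet receptors, lay below the detection floor of 4.23, the 50th percentile of all probes. All 10 neutrophil markers were lower in platelets, with summed linear signals of 388.3 to 445.7 in platelets against 1764 to 2008 in progenitors, and Elane and Ctsg lay below the floor in platelets. Of 5 erythroid markers tested, 4 were higher in platelets, with sums of 1797 to 1951 against 221.0 to 227.3. Of 7 monocyte markers tested, 2 were higher in platelets and 0 lower, with sums of 1111 to 1283 against 344.4 to 364.0. B cell markers had 0 higher and 3 lower of 6, T and NK cell markers 1 and 0 of 7, stem and progenitor markers 1 and 2 of 8, and stroma markers 1 and 2 of 6. For B cell markers the sums were 215.2 to 226.4 in platelets against 365.9 to 407.9 in progenitors. T and NK cell markers gave 331.9 to 344.4 against 351.3 to 376.3. Stem and progenitor markers gave 887.9 to 1118 against 304.8 to 368.4, with single log2 differences from -1.39 to 4.94. Stroma markers gave 376.7 to 488.1 against 263.9 to 292.3. Over all genes tested, 16.2% were called higher and 25.7% lower by the criteria below. The part of other cells in the differences below was not tested. In such bulk samples, fewer cells of a type and less RNA per cell cannot be told apart.

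As background, every mitochondrial ribosomal protein is encoded in the nucleus, made on cytosolic ribosomes and imported, whereas the ribosomal RNAs come from the mitochondrial genome. Some of the proteins descend from bacterial ribosomal proteins and others were gained by mitochondria, many of them at the surface of the particle. The products of this ribosome are core subunits of the respiratory chain and of ATP synthase. Platelets have no nucleus but carry mitochondria and RNA inherited from the megakaryocyte, so their mitoribosomal transcripts were made before the platelet was shed.

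The promoters of the 4 genes called between the cell types (values below) are shown because nuclear genes for mitochondrial proteins are known to be bound near the start by NRF1, by ETS factors such as GABP, and by YY1. Each is the RefSeq window of 300 bases on GRCm38.p6, most of it upstream of a start site, written 5′ to 3′ on the gene's strand. Capitals mark the letters searched on both strands, CCGGAAG for ETS factors (its reverse complement reads CTTCCGG), AAGATGGC for YY1 and GCATGCGC for NRF1, the last shortened after a first search with a longer form that fewer windows held.
Mrps18c, chr5:100798509-100798808, plus strand: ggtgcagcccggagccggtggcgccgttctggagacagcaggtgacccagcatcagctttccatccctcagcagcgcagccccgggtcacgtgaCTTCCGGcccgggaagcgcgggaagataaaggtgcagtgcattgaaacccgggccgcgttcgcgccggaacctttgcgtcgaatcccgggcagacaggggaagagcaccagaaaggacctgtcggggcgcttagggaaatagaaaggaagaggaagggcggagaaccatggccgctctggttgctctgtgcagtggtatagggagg
Mrpl48, chr7:100583081-100583380, minus strand: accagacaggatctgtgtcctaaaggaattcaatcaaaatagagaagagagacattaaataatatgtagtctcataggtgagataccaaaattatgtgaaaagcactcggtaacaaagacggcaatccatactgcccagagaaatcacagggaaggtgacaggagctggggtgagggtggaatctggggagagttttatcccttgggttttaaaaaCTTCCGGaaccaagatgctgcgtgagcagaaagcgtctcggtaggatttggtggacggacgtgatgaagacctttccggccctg
Mrpl51, chr6:125191950-125192249, plus strand: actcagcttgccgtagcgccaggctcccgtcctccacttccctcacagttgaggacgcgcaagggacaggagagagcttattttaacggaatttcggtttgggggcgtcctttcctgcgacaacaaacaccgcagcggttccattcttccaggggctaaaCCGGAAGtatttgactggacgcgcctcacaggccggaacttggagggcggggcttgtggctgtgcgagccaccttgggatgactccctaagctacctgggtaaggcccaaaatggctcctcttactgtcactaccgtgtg
Mrpl37, chr4:107066817-107067116, minus strand: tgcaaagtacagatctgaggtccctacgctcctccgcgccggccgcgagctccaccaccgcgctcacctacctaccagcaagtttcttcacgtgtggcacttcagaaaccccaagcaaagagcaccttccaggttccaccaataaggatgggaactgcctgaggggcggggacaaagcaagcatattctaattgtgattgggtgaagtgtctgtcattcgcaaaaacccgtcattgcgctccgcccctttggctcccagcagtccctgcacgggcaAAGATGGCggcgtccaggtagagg
The 3 genes called higher in platelets held the ETS letters once and no NRF1 or YY1 letters, and Mrpl37, the gene called lower, held the YY1 letters, downstream of its start site, and no ETS or NRF1 letters. Mrpl48 has 4 annotated start sites, and the window printed is the one with the ETS letters, chosen after the search. A match is a run of letters, not a measured binding site.

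RefSeq windows were found for 66 of the 75 genes, with 72 windows in all. The ETS letters occurred in 37.9% of the mitoribosomal genes with a window, against 9.93% of all genes with one and 12.95% of protein-coding genes. The YY1 letters occurred in 18.2%, against 3.19% of all genes and 3.57% of protein-coding genes. The NRF1 letters occurred in 12.1%, 8 genes of which 7 were Mrpl (Mrpl9, Mrpl10, Mrpl17, Mrpl22, Mrpl32, Mrpl33 and Mrpl39) and 1 was Mrps18b, against 3.05% of all genes and 3.94% of protein-coding genes. The letters TATAAA, the core of the TATA box, occurred in 7.58% of the mitoribosomal genes, against 15.7% of all genes and 14.8% of protein-coding genes. Both the ETS and the YY1 letters were in the windows of Mrps12, Mrps18a and Mrps27, both the ETS and the NRF1 letters in 4 genes, and 29 genes had none of the ETS, YY1 and NRF1 letters. The median GC content of the windows was 58.5%, against 52.7% for all windows and 56.3% for those of protein-coding genes, and its part in these shares was not tested. Split by the sign of the cell type difference, the ETS letters were in 40.7% of 27 genes above 0 and 35.9% of 39 genes below 0, and the YY1 letters in 18.5% and 17.9%. The NRF1 letters were in 7.41% of those above 0 and 15.4% of those below, and TATAAA in 14.8% and 2.56%, and no difference in these shares was tested.

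The first comparison asked how the transcripts of the mitoribosome differ between platelets and the marrow cells. As deposited, most did not differ beyond 1.5-fold. Of the 62 genes at or above the floor, 3 were called higher in platelets (Mrps18c, Mrpl48 and Mrpl51) and 1 lower (Mrpl37), at an adjusted p of at most 0.05 and a difference of at least 1.5-fold in limma, with treatment as a term. Over all 18875 genes tested, 16.2% were called higher and 25.7% lower. The median log2 difference of the mitoribosomal genes was -0.03 (middle 50% from -0.17 to 0.19), against -0.26 for all genes tested (-0.60 to 0.20). The 95% interval of the difference lay wholly within 1.5-fold either way for 47 of the 62 genes, 75.8%, against 35.5% of all genes tested. At an adjusted p of at most 0.05 and any size, 12 genes were higher and 12 lower, against 22.5% and 50.3% of all genes. All 3 platelet arrays lay above all 3 progenitor arrays for 14 genes (24.2% of all genes), below them for 16 (54.2% of all genes), and the arrays overlapped for 32.

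**Figure D1:**
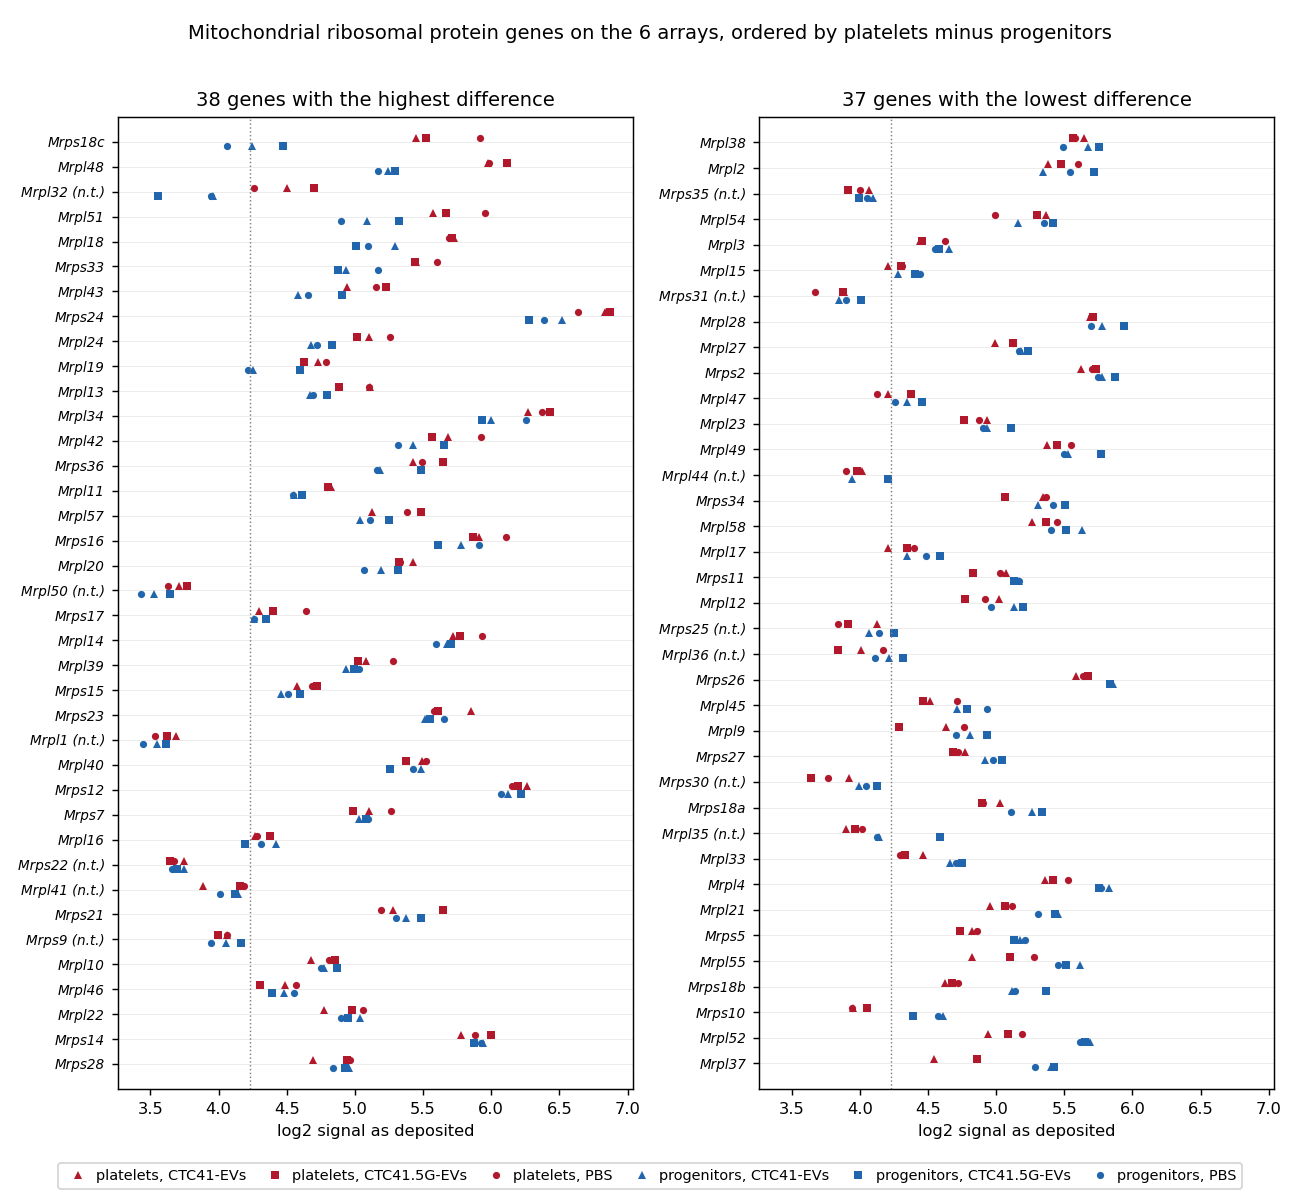
Log2 signal as deposited (x axis) of the 75 mitochondrial ribosomal protein genes (rows, ordered by platelets minus progenitors, highest at top left) on each array. Red symbols are platelets and blue symbols progenitors, with triangles for CTC41-EVs, squares for CTC41.5G-EVs and circles for PBS. The dotted line is the floor of 4.23, and n.t. marks genes whose mean over the 6 arrays lay under it. Red and blue are far apart for Mrps18c and Mrpl48 at the top left and for Mrpl52 and Mrpl37 at the bottom right, and mixed over many rows between.

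The direction of small differences depended on how the arrays were scaled, which the sources do not settle. The median of all probes was 4.005 to 4.052 on the platelet arrays against 4.38 to 4.45 on the progenitor arrays, and that of 1084 olfactory receptor genes, usually silent outside the nose, was 3.07 to 3.12 against 3.77 to 3.86. Quantile normalization moved the median difference of the mitoribosomal genes to 0.27 (0.05 for all genes) with 10 of 62 called higher and 0 lower, where 21.9% of all genes were called higher and 12.1% lower. Centring each array on its median gave 0.34 (0.11 for all genes) with 14 higher and 0 lower, against 24.8% and 10.1% of all genes. Centring on olfactory receptor genes gave 0.68 (0.45 for all genes) with 42 higher and 0 lower, against 40.3% and 5.47% of all genes. Centring added 0.38 (all probes) or 0.72 (olfactory receptor genes) to every difference, so any value between -0.72 and 0 given here as deposited turns positive under the second. The median of the mitoribosomal genes lay 0.23 above that of all genes as deposited, a distance that centring cannot change, and 0.21 above it after quantile normalization. The distance depended on the floor. As deposited it was 0.13 over the 75th percentile of all probes and -0.27 over the 90th, where 4 mitoribosomal genes were left. Mrps18c, Mrpl48 and Mrpl51 were called higher under all 4 scalings. Either centring raised every difference, and quantile normalization raised theirs to 1.65, 1.01 and 0.88, so these calls are not separate checks.

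**Figure D2:**
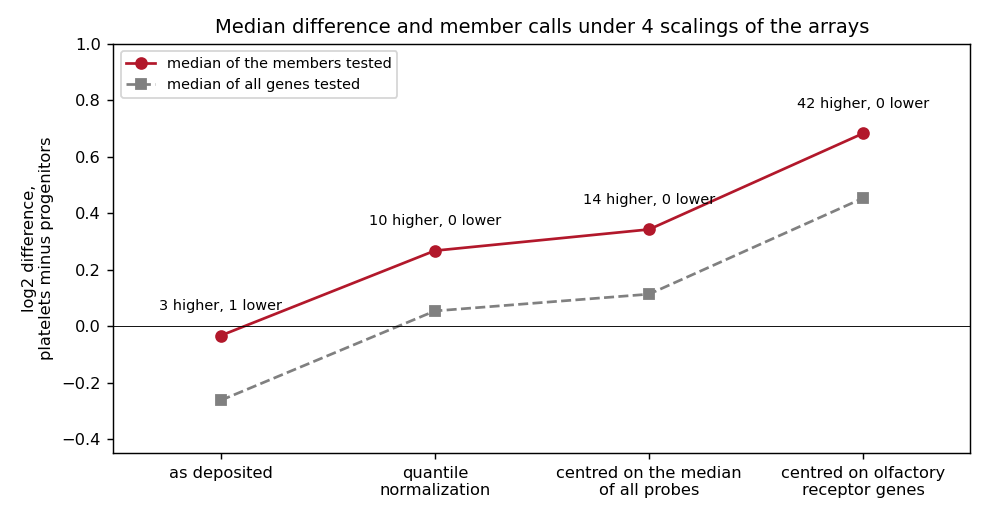
Median log2 difference, platelets minus progenitors (y axis), under 4 scalings of the arrays (x axis), for the mitochondrial ribosomal protein genes tested (red circles) and all genes tested (grey squares). The number of mitoribosomal genes called higher and lower stands above each red circle. The medians go from -0.03 and -0.26 as deposited to 0.68 and 0.45 with olfactory receptor centring. Either centring adds 1 constant to every difference, so it cannot change the distance between them.

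Mrps18c had the largest difference. It encodes a small subunit protein, 1 of several mammalian homologues of bacterial ribosomal protein S18. Its log2 signal was 5.45 with CTC41-EVs, 5.52 with CTC41.5G-EVs and 5.92 with PBS in platelets, against 4.24, 4.47 and 4.06 in progenitors in the same order of treatments. The lowest platelet array lay well above the highest progenitor array, and progenitor signals straddled the floor. The means were 5.63 ± 0.25 in platelets and 4.26 ± 0.21 in progenitors (SD, n = 3 each), a difference of 1.37 (SE 0.15, 95% interval 1.01 to 1.73), or 2.58-fold, with an adjusted p of 0.000207 in limma.

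Its relatives lay below 0 as deposited and above 0 with olfactory receptor centring. Mrps18a, which sits in the large subunit, averaged 4.94 ± 0.08 in platelets and 5.24 ± 0.12 in progenitors (SD, n = 3 each), a log2 difference of -0.29 (SE 0.09) that did not reach 1.5-fold. Mrps18b, a small subunit paralogue without the S18 position, averaged 4.67 ± 0.05 in platelets and 5.21 ± 0.14 in progenitors (SD, n = 3 each), a log2 difference of -0.53 (SE 0.09), also under 1.5-fold. All platelet arrays lay below all progenitor arrays for both. The difference between Mrps18c and the other two paralogues was not tested.

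Mrpl48, a mitochondria-specific protein of the large subunit's central protuberance, had log2 signals of 5.98 with CTC41-EVs, 6.12 with CTC41.5G-EVs and 5.98 with PBS in platelets, against 5.24, 5.30 and 5.17 in progenitors. The treatments hardly separated within a cell type, and the 2 cell types did not overlap. The difference was 0.79 (SE 0.09, 95% interval 0.57 to 1.01), or 1.73-fold, with an adjusted p of 0.000252 in limma. In RefSeq the gene overlaps Rab6a, a gene of Golgi traffic, whose own probe was 2.21 higher in platelets on the log2 scale, and the probe of the pseudogene Mrpl48-ps was 1.25 higher. The annotation of the Mrpl48 probe lists more than 1 Entrez identifier, as does that of Mrpl33. Whether the Mrpl48 probe also reads these transcripts was not tested.

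Mrpl51, another mitochondria-specific large subunit protein, had log2 signals of 5.58 with CTC41-EVs, 5.67 with CTC41.5G-EVs and 5.95 with PBS in platelets, against 5.09, 5.32 and 4.90 in progenitors. The 2 cell types were farthest apart on the PBS arrays. The difference was 0.63 (SE 0.14, 95% interval 0.29 to 0.97), or 1.55-fold, with an adjusted p of 0.00581 in limma. It fell under 1.5-fold, to 0.42, without the platelet PBS array and likewise without the progenitor PBS array. With treatment as a term, leaving out either array of a treatment takes both out of the difference, so these are the same check. Ncapd2, the nearest protein-coding neighbour of Mrpl51 in RefSeq and a condensin subunit, was lower in platelets by a log2 difference of -0.74.

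Mrpl37, a mitochondria-specific large subunit protein, was the gene called lower. Its log2 signals were 4.55 with CTC41-EVs, 4.86 with CTC41.5G-EVs and 4.86 with PBS in platelets, against 5.40, 5.43 and 5.29 in progenitors. All platelet arrays lay below all progenitor arrays. The difference was -0.61 (SE 0.10, 95% interval -0.86 to -0.37), with an adjusted p of 0.00139 in limma. It was -0.49, under 1.5-fold, without the CTC41-EVs pair, which leaves the difference when 1 of its arrays is left out. With the arrays centred on olfactory receptor genes the sign turned, to 0.10. Cyb5rl, which overlaps Mrpl37 in RefSeq, had a log2 difference of -0.55 and was not called.

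The counts of calls depended on the array left out. Leaving out either array of a treatment takes the pair out of each difference, so the counts of a pair are not separate checks. Without the progenitor CTC41-EVs array 5 genes were called higher, with Mrpl18 and Mrpl32 added, and the other arrays left 2 to 4. Without either CTC41-EVs array 0 were called lower, without either PBS array 4, and without either CTC41.5G-EVs array 3. Mrpl52, Mrpl55, Mrps10 and Mrps18b were the genes added on the lower side.

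The genes nearest to 1.5-fold without reaching it, each with an adjusted p under 0.05 in limma, come next. On the higher side these were Mrpl18, which encodes a homologue of bacterial uL18 in the central protuberance, with a log2 difference of 0.58 (SE 0.10), and Mrps33, a mitochondria-specific small subunit protein, with 0.50 (SE 0.08). Mrpl18 had 5.73, 5.71 and 5.69 in platelets with CTC41-EVs, CTC41.5G-EVs and PBS, against 5.29, 5.01 and 5.10 in progenitors. The platelet arrays of this gene were nearly level. On the lower side they were Mrpl52, a mitochondria-specific large subunit protein, with -0.58 (SE 0.10), Mrps10, Mrps18b, and Mrpl55 with -0.46 (SE 0.13). Mrps10, the homologue of bacterial uS10, had -0.54 (SE 0.11). All 3 of its platelet signals lay under the floor, so it was tested only through its progenitor arrays. Mrpl52 had 4.94, 5.09 and 5.19 in platelets, against 5.69, 5.65 and 5.62 in progenitors, and the cell types did not overlap.

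Arranged by place in the ribosome, the large subunit proteins with a bacterial homologue had 0 called of 25 tested, against 41.9% of all genes. Their median log2 difference was -0.09. Their differences ran from -0.46 (Mrpl55) to 0.58 (Mrpl18). For proteins that line the nascent chain exit in bacteria, the differences were small on either side. Mrpl22 had -0.02 (SE 0.10), Mrpl23 -0.12 (SE 0.10) and Mrpl24 0.38 (SE 0.09). Of the stalk and its base, where translation factors bind, Mrpl10 had -0.02 (SE 0.08), Mrpl11 0.24 (SE 0.08) and Mrpl12 -0.19 (SE 0.10). Of these 6, Mrpl11 and Mrpl24 had an adjusted p under 0.05 in limma, each under 1.5-fold.

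The mitochondria-specific large subunit proteins had 2 called higher (12.5%) and 1 lower (6.25%) of 16 tested, with a median of -0.03. Among all genes tested these shares were 16.2% and 25.7%. Mrpl45, which in human mitochondria tethers the ribosome to the inner membrane near the tunnel exit, had a difference of -0.25 (SE 0.08), with 4.51, 4.46 and 4.71 in platelets with CTC41-EVs, CTC41.5G-EVs and PBS, against 4.72, 4.78 and 4.93 in progenitors. Mrpl58, a peptidyl-tRNA hydrolase that is also built into the large subunit, had 5.26, 5.36 and 5.45 in platelets against 5.63, 5.51 and 5.40 in progenitors. These overlapped, and the difference was -0.16 (SE 0.11).

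The small subunit proteins with a bacterial homologue had 1 called higher (7.14%), Mrps18c, and 0 lower of 14 tested, with a median of 0.02. Of all genes, 16.2% were called higher and 25.7% lower. Mrps12, the homologue of the decoding centre protein uS12, had 6.26, 6.19 and 6.15 in platelets with CTC41-EVs, CTC41.5G-EVs and PBS, against 6.13, 6.22 and 6.07 in progenitors. The cell types overlapped, with a difference of 0.06 (SE 0.11, 95% interval -0.19 to 0.32). Mrps5 and Mrps10 had differences of -0.37 (SE 0.08) and -0.54 (SE 0.11) without reaching 1.5-fold, and Mrps24, the homologue of uS3, had 0.38 (SE 0.13). The mitochondria-specific small subunit proteins had 0 called of 6 tested, against 41.9% of all genes, with a median of -0.18. Mrps36, a symbol now known to belong to a subunit of the alpha-ketoglutarate dehydrogenase complex and so put in none of these lists, had 0.25 (SE 0.09).

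The genes whose mean over the 6 arrays fell under the floor were not tested, and for them only the signals can be given. They were Mrpl1, Mrpl32, Mrpl35, Mrpl36, Mrpl41, Mrpl44, Mrpl50, Mrps9, Mrps22, Mrps25, Mrps30, Mrps31 and Mrps35. Of these, Mrpl32, the homologue of bacterial bL32, stood apart in platelets, with 4.50, 4.70 and 4.26 with CTC41-EVs, CTC41.5G-EVs and PBS, against 3.96, 3.56 and 3.94 in progenitors, a log2 difference of 0.67. Its platelet arrays lay above the floor and its progenitor arrays below it. It was called higher when no floor was set, which gave 4 higher and 1 lower of 75, against 11.4% and 23.3% of all genes. Mrps30 and Mrpl35 had every platelet array below every progenitor array, with log2 differences of -0.28 and -0.33. The rest overlapped between the cell types.

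Other genes of mitochondrial translation were set beside the ribosome, from lists chosen with results of these arrays already known. Of the ribosomal proteins without an Mrp symbol, Dap3, a GTP-binding small subunit protein, was the single gene tested, with 4.79 ± 0.14 in platelets and 4.90 ± 0.11 in progenitors (SD, n = 3 each) and a difference of -0.12 (SE 0.11). The mitochondrially encoded small subunit ribosomal RNA, mt-Rnr1, had log2 signals of 13.69, 13.35 and 12.77 in platelets with CTC41-EVs, CTC41.5G-EVs and PBS, against 13.07, 12.77 and 13.14 in progenitors. These overlapped, and the difference was 0.28 (SE 0.33, adjusted p = 0.47 in limma).

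Against 16.2% of all genes called higher and 25.7% lower, translation factors had 1 called higher and 1 lower of 9 tested, with a median log2 difference of -0.06. Slirp, which with Lrpprc stabilises mitochondrial messenger RNAs, rose by 1.002 (SE 0.11), with 4.45, 4.79 and 4.96 in platelets against 3.65, 3.78 and 3.77 in progenitors. All its progenitor signals lay under the floor, so it was tested only through its platelet arrays. Taco1, a translational activator of Cox1, fell by 0.68 (SE 0.12). Lrpprc itself was under the floor and not tested.

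Ribosome assembly genes had 2 called higher (10.5%) and 3 lower (15.8%) of 19 tested, where all genes had 16.2% and 25.7%. Their median log2 difference was -0.49, against -0.26 for all genes. At an adjusted p of at most 0.05 in limma and any size, 4 were higher and 13 lower, against 22.5% and 50.3% of all genes. Tfb1m, which methylates the small subunit ribosomal RNA, rose by 0.98 (SE 0.09). All 3 of its progenitor signals lay under the floor, so it was tested only through its platelet arrays. Rbfa, a small subunit assembly factor, rose by 0.62 (SE 0.12). Mrm1 and Mrm2, which methylate the large subunit ribosomal RNA, fell by 0.74 (SE 0.08) and 0.71 (SE 0.11), and Trub2, a pseudouridine synthase, fell by 0.70 (SE 0.09). With olfactory receptor centring the median turned positive, as did Mrm2, Trub2 and Taco1, while Mrm1 stayed below 0. Mitochondrial aminoacyl-tRNA synthetases had 0 higher and 2 lower of 10 tested, Pars2 and Vars2, with a median of -0.51 that also turned under that centring, as did both genes. Among 8 regulators of mitochondrial biogenesis tested, Yy1 rose by 0.998 (SE 0.11) and Polrmt, the mitochondrial RNA polymerase, fell by 0.62 (SE 0.09), with a median of -0.27, and Polrmt and this median turned positive under that centring.

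The nuclear genes of oxidative phosphorylation, most of them from complexes in which the mitoribosome makes partner subunits, gave other counts. Of 28 tested, 18 were called higher and 0 lower, with a median log2 difference of 0.75. Cox5a, a cytochrome c oxidase subunit, rose by 5.23 (SE 0.18), Ndufa1, a complex I subunit, by 4.90 (SE 0.17) and Ndufa4, now counted with complex IV, by 4.01 (SE 0.17). Of 45 cytosolic ribosomal protein genes tested, paralogues and pseudogenes with Rpl or Rps symbols included, 22 were called higher and 2 lower, with a median of 0.54. Of 16 other genes of mitochondrial proteins (import, channels, carriers, chaperones, a prohibitin and citrate synthase), 4 were higher and 0 lower, with a median of 0.30, led by Vdac3, an outer membrane channel, at 4.16 (SE 0.16). Beside these stood 3 higher and 1 lower of 62 mitoribosomal genes, and 16.2% higher and 25.7% lower of all genes. All these counts are as deposited. Under the other scalings 10, 14 or 42 of the mitoribosomal genes were called higher, against 21.9%, 24.8% and 40.3% of all genes. The other lists were not counted there. A difference between the lists was not tested, and genes of a list are not independent of each other.

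**Figure D3:**
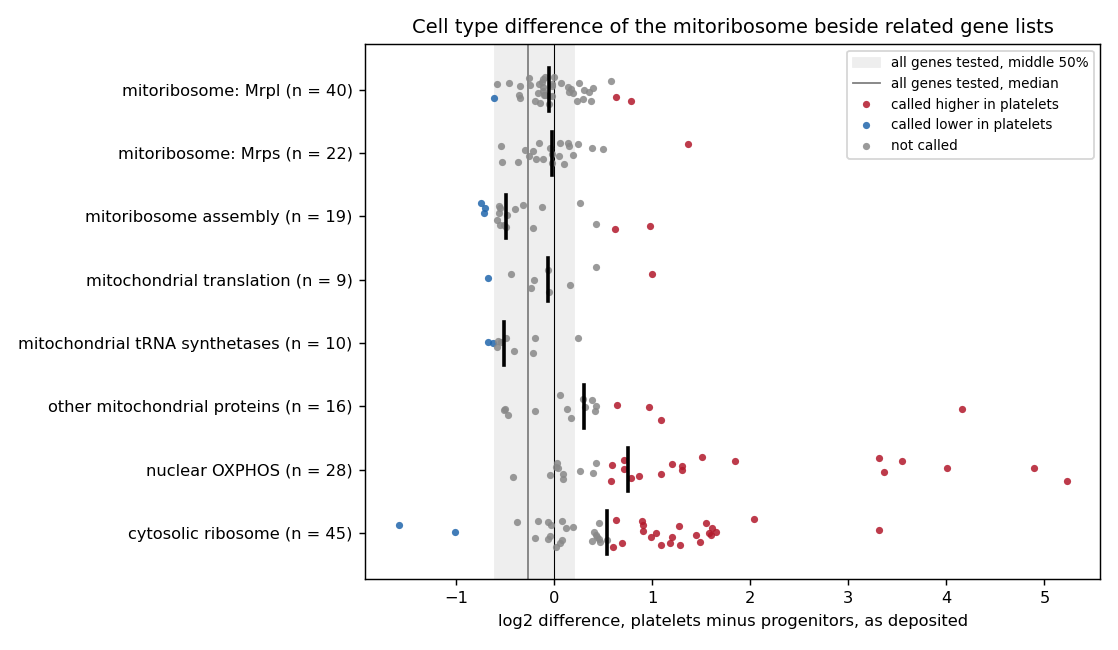
Log2 difference, platelets minus progenitors, as deposited (x axis), of the genes tested in the mitochondrial ribosome and 6 related lists (rows). Each point is 1 gene, red where called higher in platelets, blue where called lower and grey where not called, and black bars are list medians. The grey band and line are the middle 50% and median of all genes tested. The Mrpl and Mrps points cluster around 0, while the nuclear OXPHOS points reach 5.23.

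The second comparison asked whether the EV treatments changed the mitoribosomal genes. Averaged over both cell types in the same limma fit, 0 mitoribosomal genes were called when CTC41-EVs were set against PBS, CTC41.5G-EVs against PBS, or CTC41.5G-EVs against CTC41-EVs, and over all genes 0.0% were called in each. At an unadjusted p under 0.05 there were 0, 1 and 3 of 62 in these contrasts, against 3.06%, 6.2% and 6.13% of all genes. The smallest adjusted p of a mitoribosomal gene was 1.0, 0.794 and 0.757. The median log2 differences were -0.04, 0.02 and 0.04. The 95% interval lay within 1.5-fold for 62, 61 and 61 of the 62 genes, so at this precision a change of over 1.5-fold common to both cell types lay outside the interval of nearly every gene. The contrasts share arrays, and the test sees only effects common to both cell types.

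The genes farthest from 0 were small in size. For CTC41-EVs against PBS they were Mrpl2 (-0.21) and Mrps24 (0.16), and for CTC41.5G-EVs against PBS Mrps16 (-0.27) and Mrps21 (0.32). For CTC41.5G-EVs against CTC41-EVs they were Mrpl40 (-0.17) and Mrpl43 (0.30). Mrps21, the homologue of bacterial bS21, had log2 signals of 5.28 with CTC41-EVs, 5.64 with CTC41.5G-EVs and 5.19 with PBS in platelets, and 5.38, 5.49 and 5.30 in progenitors. In both cell types the CTC41.5G-EVs array was the highest.

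Within a cell type each EV contrast is 1 array against 1 array, with no replicate check and no test. The genes counted averaged, within the cell type, at or above 5.07, the 75th percentile of all probes. Of 34 such mitoribosomal genes in platelets and 37 in progenitors, 0 differed by 1.5-fold or more in any of the 3 contrasts, and the same was so of all 75 with no floor. Over all genes above that floor in platelets, 0.449% were at least 1.5-fold higher and 2.34% lower with CTC41-EVs against PBS, 0.643% higher and 1.31% lower with CTC41.5G-EVs against PBS, and 2.79% higher and 0.885% lower with CTC41.5G-EVs against CTC41-EVs. In progenitors these shares were 3.09% and 0.101%, then 5.47% and 0.746%, then 0.608% and 0.783%, in the same order of contrasts.

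In platelets with CTC41-EVs, 8 mitoribosomal genes were above and 26 below PBS, with a median log2 difference of -0.12, where 61.1% of all genes were below PBS and their median was -0.06. With CTC41.5G-EVs, 16 were above and 18 below PBS, with a median of -0.01 (all genes 0.01, 48.6% of them below PBS). CTC41.5G-EVs against CTC41-EVs gave 20 above and 14 below, with a median of 0.05 (all genes 0.07, 39.0% of them below). In progenitors the medians were 0.06 for CTC41-EVs against PBS (26 above, 11 below), 0.11 for CTC41.5G-EVs against PBS (25 above, 12 below) and 0.05 for CTC41.5G-EVs against CTC41-EVs (23 above, 14 below), where all genes had 0.04, 0.13 and 0.08, with 37.3%, 25.1% and 31.5% of them below 0. As deposited and over this floor, the mitoribosomal medians thus lay within 0.06 of those of all genes in every contrast. The distance to all genes was wider in some other settings. It was -0.10 for CTC41-EVs against PBS in platelets with no floor. For CTC41.5G-EVs against PBS in progenitors it was -0.26 over the 90th percentile, where 4 mitoribosomal genes were left. Cytosolic ribosomal protein genes had larger medians in the contrasts of CTC41-EVs with PBS (-0.27 in platelets, 0.31 in progenitors) and of CTC41.5G-EVs with PBS in progenitors (0.68), and nuclear OXPHOS genes had -0.20, 0.16 and 0.23.

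**Figure D4:**
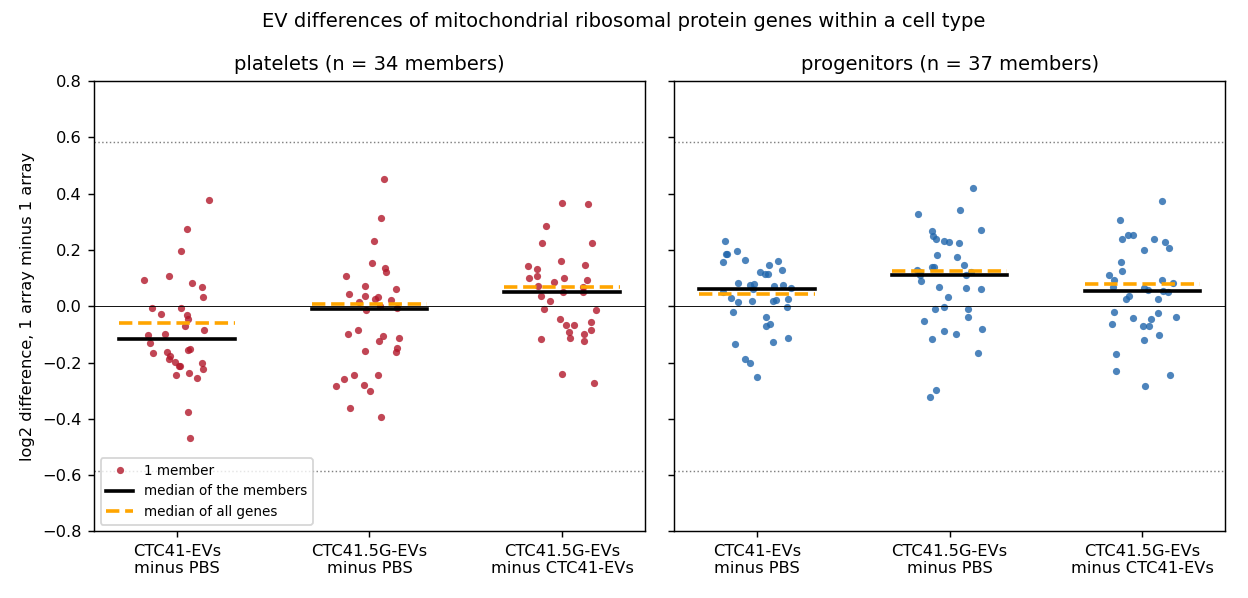
Log2 difference of 1 array minus 1 array (y axis) for the mitochondrial ribosomal protein genes over the floor, for 3 contrasts (x axis), in platelets (left, 34 genes) and progenitors (right, 37 genes). Each point is 1 gene, the black bar is their median, the orange dashed bar the median of all genes over the floor, and the dotted lines mark 1.5-fold. No point reaches a dotted line, and black and orange bars lie close together.

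Among the genes farthest from PBS in platelets, Mrps18c had -0.47 with CTC41-EVs and -0.39 with CTC41.5G-EVs, and Mrpl51 had -0.38 and -0.28. Both contrasts use the same PBS array, on which Mrps18c (5.92) and Mrpl51 (5.95) were at their highest. In progenitors Mrpl51 had 0.18 with CTC41-EVs and 0.42 with CTC41.5G-EVs against PBS, and Mrps18c, under the floor there, had 0.18 and 0.41. On the other side in platelets, Mrpl54, a mitochondria-specific large subunit protein, had 0.38 with CTC41-EVs and 0.31 with CTC41.5G-EVs, from 5.37, 5.30 and 4.99 with CTC41-EVs, CTC41.5G-EVs and PBS. In progenitors its signals were 5.16, 5.41 and 5.35, without that order.

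Mrpl42, a mitochondria-specific large subunit protein, had 5.69, 5.56 and 5.92 in platelets with CTC41-EVs, CTC41.5G-EVs and PBS, and 5.43, 5.66 and 5.31 in progenitors. The CTC41.5G-EVs array was its lowest in platelets and its highest in progenitors, with differences from PBS of -0.36 and 0.34. Mrpl34, the homologue of bacterial bL34, had 6.27, 6.43 and 6.37 in platelets, and in progenitors 5.93 with CTC41.5G-EVs and 6.25 with PBS. There both EV arrays lay below PBS, with differences of -0.25 for CTC41-EVs and -0.32 for CTC41.5G-EVs. Mrps16, the homologue of bS16, had 5.91, 5.86 and 6.11 in platelets and 5.78, 5.61 and 5.91 in progenitors. Its PBS array was the highest in both cell types, and its difference over both for CTC41.5G-EVs against PBS did not pass the test.

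Other genes among the farthest from PBS were also under 1.5-fold. In platelets with CTC41-EVs, Mrpl57 had a log2 difference of -0.26 and Mrps23 had 0.27, and with CTC41.5G-EVs Mrps34 had -0.30 and Mrps7 had -0.28. In progenitors with CTC41.5G-EVs, Mrpl40 had -0.17, Mrpl38 had 0.27 and Mrpl49 had 0.27, and with CTC41-EVs Mrpl58 had 0.23. These are differences of 1 array from 1 array.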

How the data were processed

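The authors deposited log2 signals per probe of 6 arrays, made with Affymetrix Expression Console 1.4.1.46 per the submitters' processing notes, while the series text names MAS5.0, so the scaling between arrays is unclear. No source used here names the genome build. The labels' protocols differ on the RNA extraction kit and the RNA input, and say that some pools may have had white and red blood cells removed with beads, without saying which. Of 72688 probes, the 30604 with 1 gene symbol were used, 827 symbols were updated by Entrez identifier, and a gene with several probes took the one with the highest mean, which left 30142 genes.

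Genes with a mean at or above the 50th percentile of all probes (4.23) were fitted with limma 3.58.1 in R 4.3.3 (cell type and treatment as additive terms, 2 residual degrees of freedom, intensity trend), with Benjamini-Hochberg adjustment over all 18875 genes tested. The fit was tested on simulated data. Within a cell type no test was made. Labels do not say that arrays are separate biological replicates, and no array shares both its cell type and its treatment with another. The spread between pools of the same condition was therefore not measured. The p-values rest on the scatter left by the additive terms, which mixes array noise with unequal responses of the cell types to treatment. The genes and lists were chosen with earlier results of these data known. Full values were given for called genes, and genes named in an EV contrast within a cell type were mostly among the 5 farthest from 0 either way. Genes short of 1.5-fold and those described by role were named after their values were seen. Alternatives were the scaling, the floor, the trend, the treatment terms, the probe and gene choice, each array left out and a rank test.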

Additional observations from a re-analysis of the deposited data

Results flagged for a closer look

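The median log2 differences of the mitoribosomal genes from PBS had opposite signs in the 2 cell types. They were -0.12 in platelets and 0.061 in progenitors for CTC41-EVs, and -0.0097 in platelets and 0.11 in progenitors for CTC41.5G-EVs. Each cell type has 1 array per treatment, so the difference between the cell types was not tested. The medians of all genes over the floor were -0.06 and 0.04 for CTC41-EVs, and 0.01 and 0.13 for CTC41.5G-EVs.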

How the results depend on the processing

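Against 3 mitoribosomal genes called higher and 1 lower with a median of -0.03, quantile normalization gave 10, 0 and 0.27 (all genes 21.9% higher and 12.1% lower), centring on all probes 14, 0 and 0.34 (24.8% and 10.1%), and centring on olfactory receptor genes 42, 0 and 0.68 (40.3% and 5.47%). A floor at the 75th percentile left 34 genes with 2 higher and 0 lower (all genes 24.7% and 24.4%). One at the 90th left 4 genes with 0 higher, 0 lower and a median of 0.18 (all genes 46.6%, 22.3% and 0.45). Fewer genes were tested at either floor. Single arrays left out gave 2 to 5 higher, 0 to 4 lower and medians of -0.07 to 0.01. In the exact Wilcoxon test of 3 against 3 arrays, 0 genes were called higher and 0 lower, since its smallest p is 0.1 (smallest adjusted p 0.1275, 0 of all genes at an unadjusted p under 0.05). No intensity trend, no treatment terms, the mean of a gene's probes and protein-coding genes alone left 3 higher and 1 lower. The shares of all genes were 16.2% and 25.7% there, or 16.2% and 19.9% with protein-coding genes alone. Mrpl37 turned to 0.10 with olfactory receptor centring, and was not called at -0.29 after quantile normalization or -0.24 with median centring. Within cell types, the median for CTC41.5G-EVs against PBS was -0.0097 in platelets, -0.062 after quantile normalization, -0.095 with median centring, -0.10 with olfactory receptor centring and 0.092 over the 90th percentile, and in progenitors 0.018 after quantile normalization, 0.018 with olfactory receptor centring and -0.083 over the 90th percentile. CTC41.5G-EVs against CTC41-EVs in progenitors gave -0.042 with median centring, -0.085 with olfactory receptor centring and -0.068 over the 90th percentile. Apart from the smaller gene sets, the cause of these shifts was not tested. No paired analysis was possible because the labels give no replicate numbers, beyond the pairing of cell types by treatment, which the fit holds as a term. Signal near the floor limits the 13 genes not tested.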
